A study of Homo sapiens with 6 samples.

Results

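Of the 58825 genes in the table, 10 were chosen by gene name as the chaperones of the endoplasmic reticulum (ER) and the XBP1 branch of its stress response: HSPA5, HSP90B1, CALR, CANX, PDIA3, PDIA4, PDIA6, DNAJB9, XBP1 and HERPUD1. Each name matched 1 gene, and all 10 were among the 18910 genes with enough counts to be tested. They were measured by poly(A) RNA-seq in 143B cells, an established human osteosarcoma line. In 3 libraries the cells had received a siRNA against SIGLEC15 and in 3 a negative control siRNA, at 80 nmol/L for 36 h in both groups, in medium with 10% serum. Both groups therefore share the transfection, and 1 cell line stands for osteosarcoma. Whether the replicates were grown separately is not stated, so a p-value here covers only library-to-library spread, which can be technical.

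The ER is where proteins bound for the cell surface, the matrix and the secretory pathway fold. HSPA5 (BiP) and HSP90B1 (GRP94) are its HSP70 and HSP90 chaperones, calnexin and calreticulin hold glycoproteins through a glucose on their sugar chain, and protein disulfide isomerases join the right cysteines. When unfolded protein builds up, the sensors IRE1, ATF6 and PERK are released from BiP. IRE1 cuts XBP1 mRNA, whose spliced form encodes an active factor. ATF6 is cut in the Golgi and, with NF-Y, acts on promoters that hold the ER stress response element. PERK slows translation and favours that of ATF4. Osteoblast-lineage cells secrete much matrix protein and rely on this machinery.

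The ER stress response element was searched on both strands as CCAAT, any 9 bases and CCACG. The genes were chosen by name as known members of the ER stress response. A high share with this element is therefore not a result independent of that choice. In RefSeq promoter windows of GRCh38.p14, which run from 250 bases before to 50 bases after each start, 9 of the 10 genes had an entry, and PDIA3 is named only. Of these 9 genes, 6 held the element in at least 1 window (66.7%), against 25 of all 27305 genes with an entry (0.0916%). HERPUD1 held the related element, searched on both strands as ATTGG, any base and CCACG, which 19 of the 27305 genes held (0.0696%). TGACGTGG, the core of the element that XBP1 is known to bind, was found on either strand in 0 of the 9 genes; 253 of the 27305 held it (0.927%). These matches are printed because genes that share the element differ in direction below. Each is written 5′ to 3′ on the strand of its gene, with the defined bases of the element in capitals.
HSPA5, chr9:125241386-125241414, minus strand: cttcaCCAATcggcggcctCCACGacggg
HSP90B1, chr12:103930211-103930239, plus strand: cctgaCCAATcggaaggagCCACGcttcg
HSP90B1, chr12:103930316-103930344, plus strand, reverse complement of the element: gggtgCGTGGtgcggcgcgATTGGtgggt
CALR, chr19:12938379-12938407, plus strand, reverse complement of the element: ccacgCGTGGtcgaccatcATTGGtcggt
CANX, chr5:179698773-179698801, plus strand, in 3 of its 4 windows: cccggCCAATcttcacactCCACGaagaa
PDIA6, chr2:10812848-10812876, minus strand, in 1 of its 2 windows: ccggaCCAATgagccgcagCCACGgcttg
XBP1, chr22:28800598-28800626, minus strand, in 1 of its 2 windows: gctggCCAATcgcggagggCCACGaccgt
HERPUD1, chr16:56932016-56932044, plus strand, related element: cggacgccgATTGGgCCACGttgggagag
Counted from the start in its only window, the element of HSPA5 lay at bases -66 to -48, the elements of HSP90B1 at -194 to -176 and -89 to -71, and that of CALR at -225 to -207. PDIA4 and DNAJB9 held neither element in these windows. A match says only that the letters are there, and the lack of one says only that these letters are not in these windows.

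The libraries held between 57966691 and 67655254 gene counts. SIGLEC15 itself was near the detection limit, with 12, 8 and 6 counts in SIGLEC15 siRNA replicates 1, 2 and 3 and 12, 10 and 22 counts in control siRNA replicates 1, 2 and 3, and its difference did not pass the test (edgeR log2 fold change -0.82, SE 0.598, Benjamini-Hochberg adjusted p = 0.529). A lowering of the target is therefore not shown in these libraries, and the groups are named by the siRNA given. Of 10 osteoblast and mesenchymal markers 9 matched the table, 7 were tested, 2 rose and 0 fell. Over all tested genes 4.65% passed, 2.22% higher and 2.43% lower. For the markers DESeq2 called 3 higher and 1 lower, limma-trend 2 and 0, and an unadjusted edgeR p under 0.05 gave 3 and 2. The bone matrix gene SPARC rose 1.75-fold, to 109 FPKM in SIGLEC15 siRNA libraries, against 62.6 FPKM in control siRNA libraries (edgeR adjusted p = 0.00137), and the collagen gene COL1A1 rose 1.62-fold (adjusted p = 0.0134). RUNX2, the osteoblast lineage factor, had 20.1, 3.6 and 15 CPM in SIGLEC15 siRNA replicates 1, 2 and 3, against 3.423, 3.589 and 2.647 CPM in control siRNA replicates 1, 2 and 3, and did not pass (edgeR adjusted p = 0.113). The mesenchymal marker VIM averaged 437 FPKM in SIGLEC15 siRNA libraries and 482 FPKM in control siRNA libraries, and SPP1 averaged 13.6 FPKM in SIGLEC15 siRNA libraries and 15.8 FPKM in control siRNA libraries. ALPL, BGLAP and COL1A2 were under 1 CPM in every library, and IBSP had 0 counts. The summed level of the 9 markers ranged from 538 to 582 FPKM in SIGLEC15 siRNA libraries and from 547 to 585 FPKM in control siRNA libraries, and the part of these differences in the results below was not tested. Of 7 markers of other cell types, CDH1, PTPRC and CD3E had 0 counts in all 6 libraries, and EPCAM was the highest, at 3.41 FPKM in SIGLEC15 siRNA libraries and 4.1 FPKM in control siRNA libraries. The summed level of those 7 ranged from 2.93 to 3.79 FPKM in SIGLEC15 siRNA libraries and from 3.9 to 4.43 FPKM in control siRNA libraries, and its part in the results below was not tested.

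The question was how this set of genes differed between cells given the SIGLEC15 siRNA and cells given the control siRNA. In SIGLEC15 siRNA libraries 4 of the 10 genes rose, 1 fell and 5 did not pass. Of all tested genes 4.65% passed, 2.22% higher and 2.43% lower. Among the 4420 genes at least as abundant as DNAJB9, the least abundant of the 10, 7.85% passed, 3.76% higher and 4.1% lower. The risers were DNAJB9, PDIA4, HSPA5 and PDIA6, by 1.88-fold, 1.44-fold, 1.32-fold and 1.27-fold. CALR, the calreticulin gene, fell 1.55-fold. Without any single library CALR, DNAJB9 and PDIA4 still passed, but the count of risers was 3 without SIGLEC15 siRNA replicate 2 and 2 without SIGLEC15 siRNA replicate 1 or 3 or any control siRNA replicate, since the calls of PDIA6 and, in those 5 fits, HSPA5 ended. XBP1 mRNA averaged 133.8 CPM ± 10.9 in SIGLEC15 siRNA libraries and 136.6 CPM ± 2.28 in control siRNA libraries (SD, n = 3 each). In bulk RNA a lower share of cells with a transcript and less of it per cell cannot be told apart. The 3 values of each group stood fully apart for 7 of the 10 genes, where 26.6% of all tested genes did so. The median log2 fold change was 0.31 over the 10 genes and -0.00642 over all tested genes.

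Levels between genes are compared in FPKM, which is per transcript length. In SIGLEC15 siRNA libraries HSPA5 (316 FPKM ± 10.2) and HSP90B1 (294 FPKM ± 25.5) stood first, followed by PDIA3 (194 ± 15), CALR (173 ± 4.64) and CANX (161 ± 21.1; SD, n = 3 each). In control siRNA libraries CALR came first (268 FPKM ± 11.6), ahead of HSPA5 (239 ± 4.27), HSP90B1 (237 ± 10.4), PDIA3 (157 ± 5.96) and CANX (145 ± 10; SD, n = 3 each). The order of the 5 abundant genes thus differed between the groups through CALR. The ranges of HSPA5 and HSP90B1 over the libraries overlapped in both groups, and those of PDIA3 and CANX did so in the control siRNA group. Within each SIGLEC15 siRNA library HSPA5 was higher than HSP90B1, and within each control siRNA library PDIA3 was higher than CANX. The range of CALR overlapped that of CANX in the SIGLEC15 siRNA group, and CALR stood above all of the other 9 genes in the control siRNA group. The remaining 5 genes followed in the same order in both groups. In SIGLEC15 siRNA libraries they were PDIA6 (105 FPKM ± 5.9), PDIA4 (73.8 ± 2.72), XBP1 (37.1 ± 2.45), HERPUD1 (15.8 ± 2.46) and DNAJB9 (10.9 ± 0.566). In control siRNA libraries they were PDIA6 (82.7 FPKM ± 1.81), PDIA4 (51.1 ± 0.576), XBP1 (37.9 ± 0.827), HERPUD1 (13.9 ± 0.688) and DNAJB9 (5.78 ± 0.591; SD, n = 3 each). None of these 5 overlapped its neighbour in either group. By mean FPKM over all libraries HSPA5 ranked 110th of the 58825 genes and DNAJB9 4420th. The 10 genes together took 0.736%, 0.653% and 0.725% of all counts in SIGLEC15 siRNA replicates 1, 2 and 3, against 0.633%, 0.603% and 0.603% in control siRNA replicates 1, 2 and 3.

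**Figure D1:**
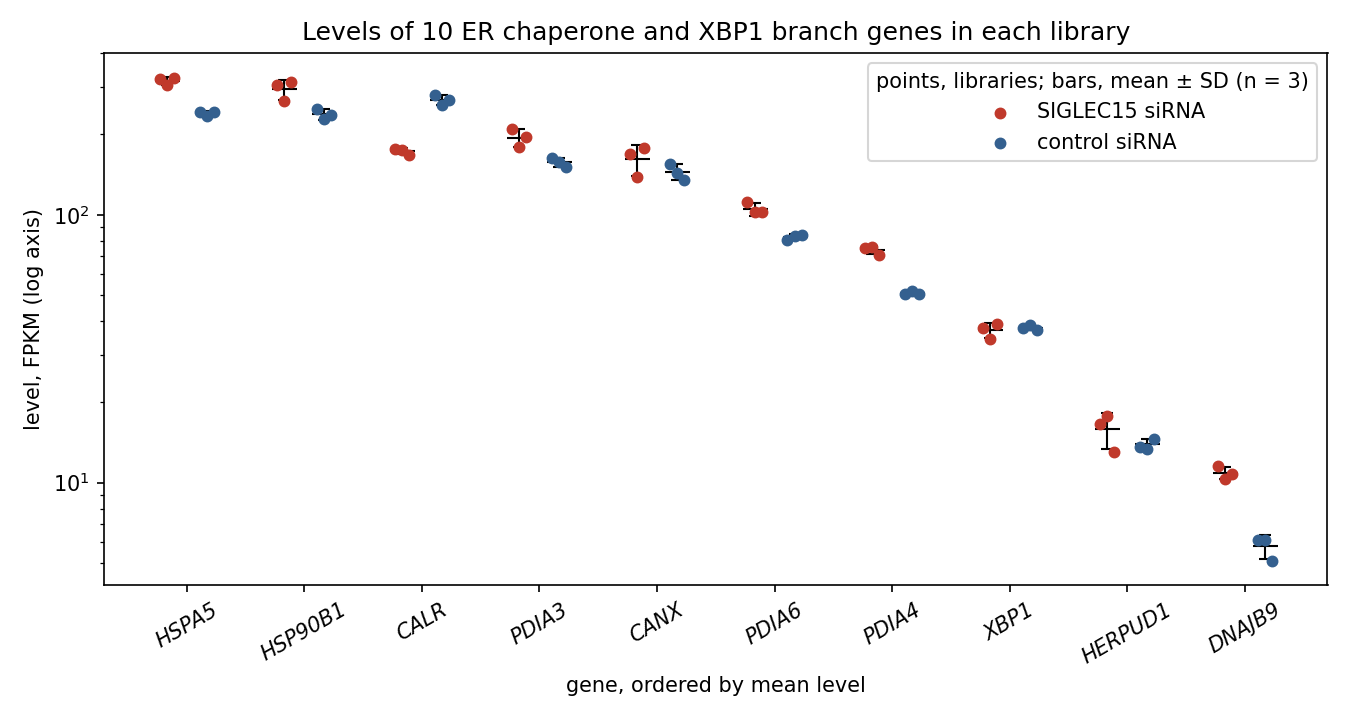
Level in FPKM on a log axis (vertical) of each of the 10 genes (horizontal, by mean level), with SIGLEC15 siRNA libraries in red to the left of control siRNA libraries in blue; points are libraries and bars are the mean ± SD (n = 3). CALR is the gene whose SIGLEC15 siRNA points (173 FPKM ± 4.64) all lie below its control siRNA points (268 FPKM ± 11.6).

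HSPA5 (ENSG00000044574, chromosome 9, 125234853 to 125241343, minus strand, protein coding) encodes BiP, which binds unfolded chains in the ER and holds the stress sensors inactive. It had 1517, 1390 and 1514 CPM in SIGLEC15 siRNA replicates 1, 2 and 3, against 1121, 1091 and 1139 CPM in control siRNA replicates 1, 2 and 3. Every SIGLEC15 siRNA library was above every control siRNA library. The log2 fold change was 0.40 (SE 0.0581, 95% interval 0.26 to 0.54, edgeR adjusted p = 0.0157). The size was steady, at 0.375 to 0.441 in 12 alternative settings, but the call ended in 6 of them, 5 of which leave out a library. It ended without SIGLEC15 siRNA replicate 1 or 3 (edgeR adjusted p = 0.055 and 0.0545) and without control siRNA replicate 1, 2 or 3 (0.0574, 0.0795 and 0.0533).

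HSP90B1 (ENSG00000166598, chromosome 12, 103930107 to 103947927, plus strand) encodes GRP94, the HSP90 of the ER, which folds integrins and Toll-like receptors. It had 1726, 1451 and 1756 CPM in SIGLEC15 siRNA replicates 1, 2 and 3, against 1376, 1271 and 1328 CPM in control siRNA replicates 1, 2 and 3. The groups did not overlap, but SIGLEC15 siRNA replicate 2 lay nearer to the control libraries than to its own group. The difference, a log2 fold change of 0.31 (SE 0.0853, 95% interval 0.11 to 0.51), did not pass the edgeR test (adjusted p = 0.101) and passed in 1 of 12 alternatives, DESeq2 (adjusted p = 0.0016). The genes C12orf73 and TTC41P overlap HSP90B1 on the opposite strand with at most 419 and 93 counts a library, against at least 75112 for HSP90B1 itself.

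CALR (ENSG00000179218, chromosome 19, 12938578 to 12944489, plus strand) encodes calreticulin, the soluble lectin chaperone that also stores ER calcium and takes part in loading MHC class I. It had 575.5, 554.6 and 543.8 CPM in SIGLEC15 siRNA replicates 1, 2 and 3, against 894.5, 825.7 and 872.7 CPM in control siRNA replicates 1, 2 and 3. All 3 SIGLEC15 siRNA libraries lay below all control siRNA libraries, with a gap larger than the range within either group. CALR fell by 0.63 on the log2 scale (log2 fold change -0.63, SE 0.0573, 95% interval -0.77 to -0.50, edgeR adjusted p = 0.00402), and it passed in 11 of 12 alternatives. The element in its promoter window was also held by HSPA5 and PDIA6, which rose, and by HSP90B1, CANX and XBP1, which were not called. DNAJB9 and PDIA4, which rose, held neither element in their windows. The part of the element in these differences was not tested.

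CANX (ENSG00000127022, chromosome 5, 179678628 to 179730925, plus strand) encodes calnexin, the membrane-bound relative of calreticulin that reads the same glucose mark. It had 1410, 1118 and 1485 CPM in SIGLEC15 siRNA replicates 1, 2 and 3, against 1273, 1183 and 1133 CPM in control siRNA replicates 1, 2 and 3. SIGLEC15 siRNA replicate 2 was the lowest of all 6 libraries, and the groups overlapped. Its log2 fold change was 0.16, with a 95% interval of -0.11 to 0.43 (edgeR adjusted p = 0.511). Neither a rise of up to 1.35-fold nor no change lies outside that interval.

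Ratios within a library set the lectins and BiP against each other. The CALR to CANX ratio of FPKM was 1.05, 1.27 and 0.938 in SIGLEC15 siRNA replicates 1, 2 and 3, against 1.8, 1.79 and 1.97 in control siRNA replicates 1, 2 and 3. The CALR to HSPA5 ratio was 0.548, 0.576 and 0.519 in SIGLEC15 siRNA libraries, against 1.15, 1.09 and 1.11 in control siRNA libraries, so calreticulin mRNA was the less abundant of this pair in SIGLEC15 siRNA libraries and the more abundant in control siRNA libraries. The HSP90B1 to HSPA5 ratio averaged 0.93 ± 0.0515 in SIGLEC15 siRNA libraries and 0.991 ± 0.03 in control siRNA libraries (SD, n = 3 each). The 5 ratios examined were these, PDIA4 to PDIA6 and DNAJB9 to HSPA5, a choice among the possible pairs of the 10 genes. Each includes a gene that rose or fell, so a ratio that stands apart is not independent of those calls. For each of the 5 the groups stood apart, where 26.6% of all tested genes taken singly did so. The share over all pairs was not counted. The exact two-sided permutation test gave p = 0.1 for each (also 0.1 after Benjamini-Hochberg adjustment), the smallest that 3 against 3 libraries allow. This test therefore cannot pass 0.05 with these libraries, and no other test of the ratios was run.

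**Figure D2:**
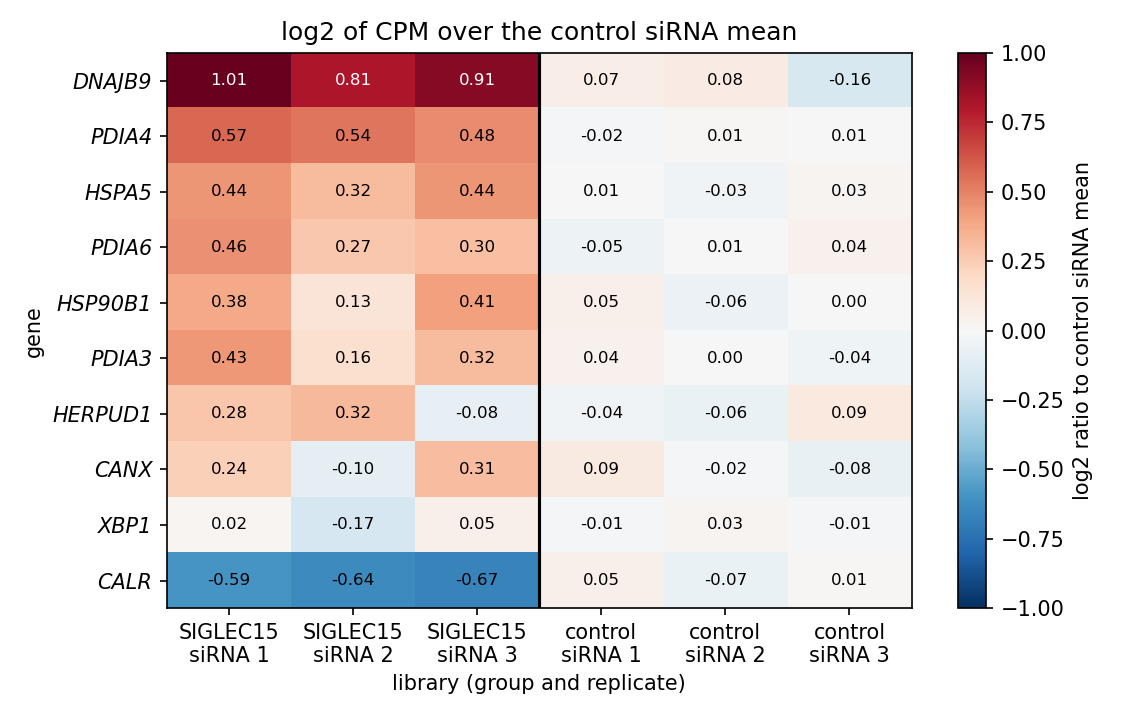
Each cell is the log2 ratio of a gene's CPM in that library (columns, SIGLEC15 siRNA left of control siRNA) to its mean CPM in control siRNA libraries, with genes in rows from the highest to the lowest log2 fold change. DNAJB9 lies at 0.81 to 1.01 and CALR at -0.67 to -0.59 in the 3 SIGLEC15 siRNA libraries, while CANX, XBP1 and HERPUD1 have both signs there.

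The 3 protein disulfide isomerases of the set, which form and shuffle disulfide bonds, lay higher in every SIGLEC15 siRNA library than in any control siRNA library, but their calls differed. Of all tested genes 26.6% stood apart in either direction. Of the 15 tested genes among the other disulfide enzymes, 7 stood above, 1 below and 7 overlapped. PDIA4 (ENSG00000155660, chromosome 7, 149003062 to 149028662, minus strand), also called ERp72, had 298.8, 290.9 and 278.9 CPM in SIGLEC15 siRNA replicates 1, 2 and 3, against 197.7, 202.6 and 201.3 CPM in control siRNA replicates 1, 2 and 3. Its log2 fold change was 0.53 (SE 0.055, 95% interval 0.40 to 0.66, edgeR adjusted p = 0.00579), and 11 of 12 alternatives passed. Among the 10 genes it had the least spread between control libraries, a coefficient of variation of 1.27%.

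PDIA6 (ENSG00000143870, chromosome 2, 10783391 to 10837977, minus strand), known to work with BiP and to damp IRE1 and PERK, had 554.1, 487.5 and 498.4 CPM in SIGLEC15 siRNA replicates 1, 2 and 3, against 390.1, 405.5 and 415.6 CPM in control siRNA replicates 1, 2 and 3. Its log2 fold change was 0.35 (SE 0.0683, edgeR adjusted p = 0.0406). This call ended in 8 of 12 alternatives, among them each of the 6 that leave out a library. Their edgeR adjusted p was 0.09, 0.0902 and 0.087 without SIGLEC15 siRNA replicates 1, 2 and 3, and 0.129, 0.138 and 0.0973 without control siRNA replicates 1, 2 and 3. Without a filter on low counts it was 0.067. The size of the difference stayed between 0.284 and 0.383. ATP6V1C2, which overlaps PDIA6 on the opposite strand, had at most 299 counts in a library.

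PDIA3 (ENSG00000167004, chromosome 15, 43746410 to 43773278, plus strand), or ERp57, is the isomerase that calnexin and calreticulin bring to glycoproteins. It had 1066, 882.5 and 984.4 CPM in SIGLEC15 siRNA replicates 1, 2 and 3, against 811.4, 789.3 and 768.2 CPM in control siRNA replicates 1, 2 and 3. The groups did not overlap. The difference, a log2 fold change of 0.31 (SE 0.0786, 95% interval 0.12 to 0.50), did not pass in edgeR (adjusted p = 0.0834) and passed in DESeq2 (adjusted p = 0.000769). Its copy PDIA3P1 was counted at 80.65 CPM ± 3.92 in SIGLEC15 siRNA libraries and 67.08 CPM ± 4.14 in control siRNA libraries (SD, n = 3 each), so reads that fit both are a possible share of either value.

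In the XBP1 branch the factor and DNAJB9, its known target, gave different results. XBP1 (ENSG00000100219, chromosome 22, 28794555 to 28800597, minus strand) had 138.6, 121.3 and 141.4 CPM in SIGLEC15 siRNA replicates 1, 2 and 3, against 135.4, 139.3 and 135.2 CPM in control siRNA replicates 1, 2 and 3. SIGLEC15 siRNA libraries held both the highest and the lowest value, and the groups overlapped. Its log2 fold change was -0.03, with a 95% interval of -0.21 to 0.15 (edgeR adjusted p = 0.879). These are counts per gene, which add the unspliced and the spliced mRNA, so the splicing by IRE1 that activates XBP1 was not measured.

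DNAJB9 (ENSG00000128590, chromosome 7, 108569867 to 108574850, plus strand) encodes ERdj4, a BiP co-chaperone and a known XBP1 target that brings BiP to IRE1. It had 35.14, 30.6 and 32.92 CPM in SIGLEC15 siRNA replicates 1, 2 and 3, against 18.31, 18.5 and 15.62 CPM in control siRNA replicates 1, 2 and 3. All SIGLEC15 siRNA values were above all control siRNA values, and the gap was larger than the range within either group. The rise, a log2 fold change of 0.91 (SE 0.109, 95% interval 0.65 to 1.17, edgeR adjusted p = 0.00856), was the highest of the 10 genes, in the least abundant of them. It passed in 11 of 12 alternatives, with values between 0.811 and 0.962.

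HERPUD1 (ENSG00000051108, chromosome 16, 56932142 to 56944864, plus strand) encodes a membrane protein that helps assemble the complex for ER-associated degradation and answers both ATF6 and PERK signals. It had 101.4, 104.7 and 78.85 CPM in SIGLEC15 siRNA replicates 1, 2 and 3, against 81.52, 80.01 and 89.27 CPM in control siRNA replicates 1, 2 and 3. SIGLEC15 siRNA replicate 3 was the lowest of the 6 libraries, so the groups overlapped. HERPUD1 had a log2 fold change of 0.18, with a 95% interval of -0.10 to 0.47 (edgeR adjusted p = 0.469).

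**Figure D3:**
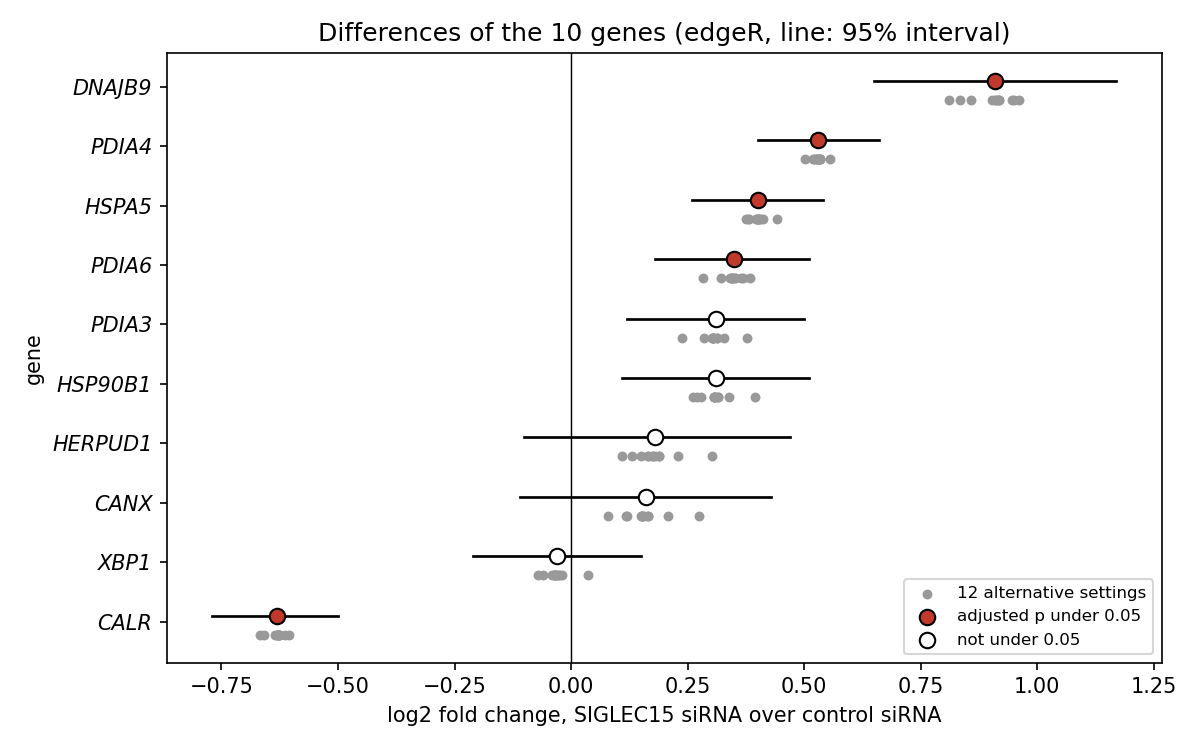
Log2 fold change of SIGLEC15 siRNA over control siRNA (horizontal) for each gene (vertical), from edgeR with its 95% interval; filled points have an adjusted p under 0.05, and small grey points are the same value in 12 alternative settings. DNAJB9 at 0.91 and CALR at -0.63 lie at the ends, and XBP1 at -0.03 lies at the middle with an interval from -0.21 to 0.15.

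Within the SIGLEC15 siRNA group, replicate 2 was the lowest library for 7 of the 10 genes, replicate 3 for 3 (CALR, PDIA4 and HERPUD1) and replicate 1 for 0. In the control siRNA group the lowest value fell in replicates 1, 2 and 3 for 2, 4 and 4 genes. The coefficient of variation was higher in the SIGLEC15 siRNA group for 8 of the 10 genes, all but CALR and DNAJB9. Over all 10 genes it ran from 2.89% for CALR to 14.8% for HERPUD1 in the SIGLEC15 siRNA group. In the control siRNA group it ran from 1.27% for PDIA4 to 9.21% for DNAJB9. Without SIGLEC15 siRNA replicate 2 the log2 fold changes of CANX, HSP90B1 and PDIA3 were 0.275, 0.394 and 0.377, and none of these 3 passed.

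A further 81 genes of ER protein folding stood in 6 lists by role, and 79 were tested. Of these 11 rose, 4 fell and 64 were not called (19% called, against 4.65% of all tested genes). The same 4.65% is the background for each list below. Among the 4420 genes at least as abundant as DNAJB9 the share was 7.85%, and the lists hold genes above and below that abundance. Log2 fold changes of the 79 genes had a median of 0.136. The count of called genes rests on all libraries, since without any single one 2 to 4 of them rose and 0 to 3 fell. Among 13 partners of BiP and other lumenal chaperones, 4 rose and 0 fell (0 also with DESeq2 and limma-trend, and 1 at an unadjusted edgeR p under 0.05). HYOU1, the exchange factor that resets BiP, had 382, 395.3 and 514.9 CPM in SIGLEC15 siRNA replicates 1, 2 and 3, against 275.4, 253.2 and 240.3 CPM in control siRNA replicates 1, 2 and 3, a 1.68-fold rise (edgeR adjusted p = 0.0244). SDF2L1, DNAJC3 and DNAJB11, which assist BiP, rose 1.55-fold, 1.39-fold and 1.23-fold. The element that HERPUD1 held was also in the promoter windows of HYOU1, where it appeared as a reverse complement at 2 places, and of SDF2L1, so the windows are shown beside that of HERPUD1.
HYOU1, chr11:119057371-119057399, minus strand: gccccgtgaCGTGGtCCAATcccaggccg
HYOU1, chr11:119057265-119057293, minus strand: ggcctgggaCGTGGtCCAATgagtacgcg
SDF2L1, chr22:21642105-21642133, plus strand: cctcggaagCGTGGaCCAATcaaaaccct
In the first HYOU1 window the sequence also overlaps a match to TGACGTGG, which 9 of 69 of the other ER genes with an entry held (13%).

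Of 15 tested genes among the other disulfide enzymes, 2 rose, 1 fell and 12 did not pass. PDIA5 rose 1.39-fold and ERO1A, the oxidase that recharges isomerases, 1.24-fold, while TXNDC5, an isomerase with several thioredoxin domains, fell 1.3-fold to 239.2 CPM ± 10.3 in SIGLEC15 siRNA libraries, against 310.3 CPM ± 1.57 in control siRNA libraries (SD, n = 3 each; edgeR adjusted p = 0.0175). Of the 6 genes that set or read the glucose of the calnexin cycle, 0 rose and 1 fell, with the same counts from DESeq2, limma-trend and an unadjusted edgeR p under 0.05. This was MLEC, a lectin for glucosylated glycans, which fell 1.38-fold to 116.8 CPM ± 5.95 in SIGLEC15 siRNA libraries, against 160.9 CPM ± 3.04 in control siRNA libraries (SD, n = 3 each; edgeR adjusted p = 0.0129).

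Among 22 genes of ER-associated degradation 4 rose and 1 fell. EDEM3 and EDEM1, mannosidases that mark misfolded glycoproteins, rose 1.56-fold and 1.39-fold, the ubiquitin-conjugating enzyme UBE2J1 rose 1.27-fold, and the ATPase VCP, which pulls substrates out of the membrane, rose 1.2-fold. UBE2G2, another ubiquitin-conjugating enzyme, fell 1.42-fold. Of 17 genes of translocation 1 rose and 1 fell, and they encode the 2 subunits of the signal recognition particle receptor. SRPRA averaged 266.1 CPM ± 3.72 in SIGLEC15 siRNA libraries and 161.8 CPM ± 9.57 in control siRNA libraries, a 1.64-fold rise (SD, n = 3 each; edgeR adjusted p = 0.00372). SRPRB averaged 79.52 CPM ± 1.81 in SIGLEC15 siRNA libraries and 127.9 CPM ± 14.8 in control siRNA libraries, a 1.61-fold fall (SD, n = 3 each; edgeR adjusted p = 0.0129). Of the 6 genes for sensors and their proteases 0 passed in edgeR, DESeq2 or limma-trend, and 0 had an unadjusted edgeR p under 0.05. The most abundant were ATF6B, a relative of ATF6, and MBTPS1, a protease that cuts ATF6. ATF6B averaged 8.6 FPKM ± 0.585 in SIGLEC15 siRNA libraries and 9.39 FPKM ± 0.641 in control siRNA libraries. MBTPS1 averaged 9.22 FPKM ± 1.58 in SIGLEC15 siRNA libraries and 8.35 FPKM ± 0.746 in control siRNA libraries (SD, n = 3 each).

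Outside these lists the ATF4 branch gave values of the other sign: of 8 tested genes 4 fell and 0 rose in edgeR, while DESeq2 gave 7 lower, limma-trend 6 and an unadjusted edgeR p under 0.05 7, each with 0 higher. The genes that fell in edgeR were CHAC1, PPP1R15A, ASNS and DDIT4, which answer amino acid shortage or PERK signals, by 1.77-fold, 1.65-fold, 1.65-fold and 1.62-fold. Among 10 further heat shock protein genes, most but not all of them HSP70 or HSP90 relatives outside the ER, 0 rose and 1 fell. For these genes 1 was higher with DESeq2 and at an unadjusted edgeR p under 0.05, and 0 with limma-trend. The cytosolic HSP90AB1 averaged 1328 CPM ± 56.7 in SIGLEC15 siRNA libraries and 2795 CPM ± 137 in control siRNA libraries (SD, n = 3 each; log2 fold change -1.07, edgeR adjusted p = 0.00131). The cytosolic HSPA8 averaged 3771 CPM ± 87.7 in SIGLEC15 siRNA libraries and 3829 CPM ± 594 in control siRNA libraries, with a 95% interval of its log2 fold change from -0.28 to 0.23. The differences between these lists and the 10 genes were not tested.

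**Figure D4:**
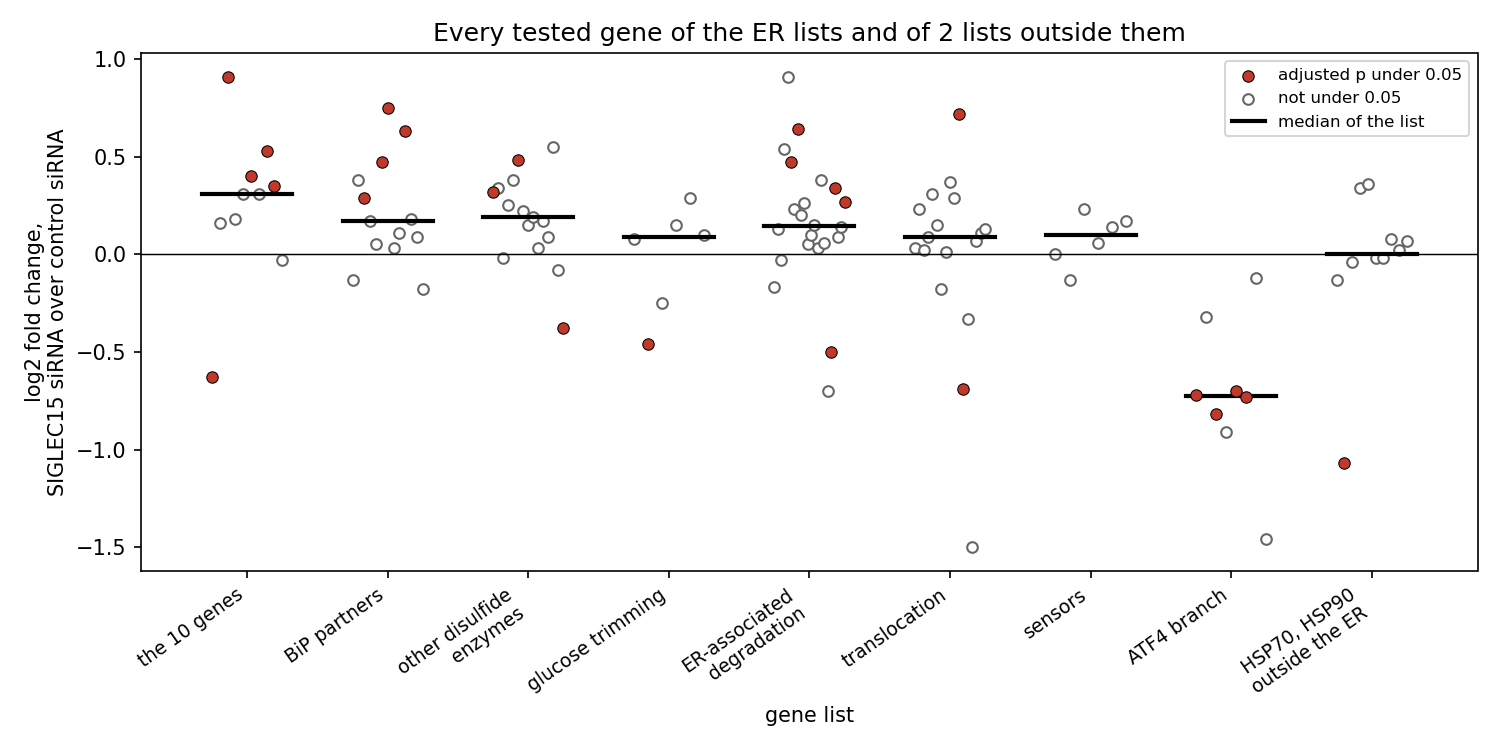
Log2 fold change of SIGLEC15 siRNA over control siRNA (vertical) of every tested gene in each list (horizontal); filled points have an edgeR adjusted p under 0.05 and bars are list medians. The median is 0.31 for the 10 genes, 0.174 for the BiP partners and -0.724 for the ATF4 branch. The last list holds heat shock protein genes, most but not all of them HSP70 or HSP90 relatives outside the ER.

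Likeness to HSPA5 was measured as the root mean square difference of log2 CPM, each gene centred on its mean, over the 6 libraries. The nearest of the other 18909 tested genes were ARL6IP5, PTPN3, FBXO33, PMM2 and NOL6, at 0.0232 to 0.0377 log2 units. All 5 are named only for their distance, and none stands in the ER lists above. ARL6IP5 is an ER membrane protein and PMM2 makes the mannose phosphate used for glycans, and no such role is claimed for PTPN3, FBXO33 or NOL6. Among the 10 genes PDIA6 came nearest to HSPA5 (49th, 0.0587), followed by HSP90B1 (97th), PDIA3 (122nd) and PDIA4 (263rd). CANX, HERPUD1, XBP1 and DNAJB9 ranked 2143rd to 8250th and CALR 17009th. The distance counts the size of a difference as well as its direction. DNAJB9, with a log2 fold change of 0.91 against 0.40 for HSPA5, thus ranked behind XBP1 at -0.03.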

How the data were processed

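Poly(A) RNA of 143B cells was sequenced as paired-end libraries, per the labels' protocols. Part of that protocol text describes another material and was not used. The table that the authors deposited holds whole-number counts and FPKM per gene, per the file headers. HISAT, StringTie and edgeR are named, per the submitters' processing notes. Tool versions, genome build, strand use and counting method: not given in the sources used here. Coordinates are the table's: each of the 10 genes overlaps its own GENCODE 29 (GRCh38) entry, in the same orientation, and for 4 both ends match.

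The test was edgeR (4.0.16, under R 4.3.3) on the counts of all 6 libraries: filterByExpr (minimum count 10, minimum total 15), TMM scaling, quasi-likelihood F test without covariates, and Benjamini-Hochberg adjustment over all tested genes, called under 0.05. CPM uses TMM-scaled totals. Standard errors are the log2 fold change over the square root of F. "Rose" and "fell" are used only of called genes.

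Alternatives were median-of-ratios scaling, no filter, DESeq2 1.42.0, limma-trend (limma 3.58.1) on log2(FPKM + 1) or log2(FPKM + 0.1), keeping genes whose mean FPKM reached 1, the replicate number as a block, and each library left out. In simulated counts over 18373 tested genes edgeR called 12.1%, 40.6% and 84.4% of genes changed 1.5-fold, 2-fold and 4-fold. The changed genes were drawn at random at any abundance. HSPA5 likeness used log2(CPM + 0.5).

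The 10 genes and the gene lists were chosen with earlier results of these data known. Named genes were the 10, SIGLEC15, HSPA8 and HSP90AB1, up to 4 called genes of each list and direction by smallest p (the 2 most abundant where none was called), and the 5 nearest to HSPA5; genes with a promoter element, overlapping genes, the copy and the cell type markers were named for what they are.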

Additional observations from a re-analysis of the deposited data

How the results depend on the processing

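The log2 fold changes of the 10 genes changed sign in 1 case among 12 alternatives each: XBP1, not called in any setting, was 0.0357 without SIGLEC15 siRNA replicate 2. Median-of-ratios scaling and limma-trend with either pseudocount left 4 of the 10 genes called higher and 1 lower. DESeq2 gave 6 higher and 1 lower, and no filter 3 and 1. Without each library in turn 2 to 3 were called higher and 1 lower.

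Over all genes 879 were called. DESeq2 gave 2917, and leaving out each library 260 to 431. Of the other ER genes 11 were higher and 4 lower. No filter left 6 higher, DESeq2 gave 24, and leaving out each library 2 to 4 higher and 0 to 3 lower. The replicate block left 50 called genes, with 0 of the 10 genes and 0 of the other ER genes higher or lower. Deviations from the group means were hardly correlated between libraries of the same replicate number (r across genes of -0.0471, 0.011 and -0.058). Whether libraries of the same number were prepared together is not stated, so the block setting is given beside the main fit. The cause of these changes in count was not tested. Each fit that leaves out a library also has fewer libraries. With 3 libraries a group, differences as small as the 1.2-fold of VCP were called, but in the simulated counts 12.1% of genes changed 1.5-fold were.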

Other observations

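Beside the 6 genes described above, 10 other tested genes held the ER stress response element in a promoter window. In edgeR 0 of these passed, where 4.65% of all tested genes did. At an unadjusted edgeR p under 0.05 there were 2 higher and 2 lower, DESeq2 called 2 higher and 1 lower, and limma-trend called 1 higher and 0 lower. In edgeR the 10 genes had log2 fold changes between -0.52 and 0.68. The most abundant were SERP1, a protein of the translocon that is known to be induced by ER stress, and EIF2A, a translation initiation factor. SERP1 averaged 25.6 FPKM ± 0.864 in SIGLEC15 siRNA libraries and 28.8 FPKM ± 0.651 in control siRNA libraries (SD, n = 3 each; edgeR adjusted p = 0.2), with the groups apart. EIF2A averaged 22.9 FPKM ± 0.761 in SIGLEC15 siRNA libraries and 24.2 FPKM ± 0.567 in control siRNA libraries (SD, n = 3 each; edgeR adjusted p = 0.563), with the groups overlapping. Besides SERP1, the genes with an unadjusted edgeR p under 0.05 were CRELD2, FICD and ZNF17, which were chosen for naming after their values were seen. CRELD2, an ER protein with epidermal growth factor repeats, averaged 6 FPKM ± 0.271 in SIGLEC15 siRNA libraries and 4.61 FPKM ± 0.311 in control siRNA libraries (SD, n = 3 each; edgeR adjusted p = 0.0733). FICD, the enzyme that AMPylates BiP, averaged 1.71 FPKM ± 0.106 in SIGLEC15 siRNA libraries and 1.06 FPKM ± 0.262 in control siRNA libraries (SD, n = 3 each; edgeR adjusted p = 0.117). ZNF17, a zinc finger protein, averaged 0.948 FPKM ± 0.058 in SIGLEC15 siRNA libraries and 1.36 FPKM ± 0.326 in control siRNA libraries (SD, n = 3 each; edgeR adjusted p = 0.222). The remaining ALG12, ERO1B, SYNPO, TMEM120A and TRIM5 had adjusted p between 0.315 and 0.783.

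Of 13 further tested genes with the related element that HERPUD1 holds, 2 rose and 1 fell, where 4.65% of all tested genes passed. HYOU1 and SDF2L1 rose, as given above. RAD9A, a subunit of a DNA damage checkpoint clamp, fell to 8.832 CPM ± 1.28 in SIGLEC15 siRNA libraries, against 14.25 CPM ± 0.151 in control siRNA libraries (SD, n = 3 each; edgeR adjusted p = 0.0359).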
